A study of Mus musculus with 9 samples.

Results

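Collagen genes were examined in the proximal colon of mice of 3 Shmt1 genotypes. Shmt1 encodes cSHMT, a cytosolic enzyme of folate metabolism. The genes were taken as every probe set whose single annotated symbol has the form of a collagen chain name (Col, a type number, a, a chain number), and each gene was represented by its probe set with the highest mean over all 9 arrays. This gave 36 genes on 58 probe sets, of 12393 genes on 22626 probe sets. Of the 36, 17 were bright enough to be tested, of 8201 genes tested in all. They comprised 6 of 9 fibrillar, 4 of 6 basement membrane and 7 of 21 other collagens.

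The 9 mice were 3 Shmt1 mutant, 3 heterozygous and 3 wild-type animals, which the labels call biological replicates. All came from a line backcrossed to C57Bl/6 for 10 generations, were 9 weeks old and had been weaned at 3 weeks onto a diet lacking folate and choline, and no mouse on a complete diet was analysed here. Time on the diet is 6 weeks in one label and 5 weeks in another, and the labels give neither the sex nor how Shmt1 was altered. Each mouse had 1 Affymetrix array, on which the brightness of a probe set is its signal, and 3 arrays a genotype limit how precise the values are.

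Collagens are trimers of chains that share a repeating glycine-containing sequence and wind into a triple helix. Fibrillar types I, III and V build the tensile fibrils of the intestinal submucosa and muscle wall, type IV forms the mesh of basement membranes under epithelium and around muscle cells and vessels, and type VI forms beaded filaments between them. In the gut wall, fibroblasts and smooth muscle cells are their main producers. The tissue was proximal colon, in which fewer cells of a type and less RNA per cell cannot be told apart.

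Shmt1 itself followed the genotype labels. Of its 4 probe sets, the one that differed most had signals of 116.9, 120.0 and 113.1 in mutant mice, 297.9, 274.4 and 337.0 in heterozygous mice, and 564.3, 575.7 and 644.1 in wild-type mice. In that set the genotypes did not overlap. In the other sets mutant mice lay below all other mice, while heterozygous mice overlapped wild-type mice. Heterozygous means there were 94.3% (a set too dim to be tested), 76.9% and 84.7% of wild-type. In the set that differed most, the mutant mean was 19.6% and the heterozygous mean 51.0% of the wild-type mean. Its limma adjusted p was 2.64e-05 for mutant against wild-type and 0.232 for heterozygous against wild-type. Arrays correlated at 0.9838 to 0.9932 over their 36 pairs. Beta-actin signal at the 3' end over that at the 5' end, which grows as RNA shortens, was highest in the array numbered 1 of each genotype, at 4.84 in mutant, 4.46 in heterozygous and 5.02 in wild-type mice, against 2.52 to 3.75 in the other 6.

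Mean signals of most tested collagens were lower in heterozygous colons than in either other genotype, and no collagen gene passed the test across all probe sets. Heterozygous mice had the lowest mean of the 3 genotypes in 15 of the 17 genes tested, or 88.2%, where 40.1% of all genes tested did. The exceptions were Col4a5 and Col14a1. Mutant minus wild-type had a median log2 fold change of -0.03. By limma with Benjamini-Hochberg adjustment, 0 of 17 collagen genes passed an adjusted p of 0.05 in each comparison. The background was 0.0122% of all genes for mutant against wild-type, 0% for heterozygous against wild-type and 0.0122% for mutant against heterozygous. Over all 13576 probe sets tested it was 0.0221%, 0% and 0.0221% for those comparisons. At an unadjusted p under 0.05 the collagen counts were 0, 8 and 9.

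One alternative changed this call for heterozygous against wild-type. With array weights, which let limma count uneven arrays less, Col5a2, Col4a1, Col6a3 and Col4a2 passed, among 0.987% of all probe sets. That fit gave wild-type mouse 2 a weight of 8.64 and the other arrays 0.454 to 1.36.

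Fibrillar collagens are described first. Type V collagen co-assembles with type I and helps set fibril diameter, and its alpha 2 chain, Col5a2, had the smallest unadjusted p of the collagens. Its signals were 1231.9, 1250.5 and 1086.8 in mutant mice, 661.0, 696.9 and 876.5 in heterozygous mice, and 1324.1, 1289.0 and 1148.9 in wild-type mice. Every heterozygous mouse lay below every mutant and every wild-type mouse, while mutant and wild-type mice overlapped. The means were 1189.7 ± 89.6 in mutant, 745 ± 115 in heterozygous and 1254 ± 92.7 in wild-type mice (SD, n = 3 each). The heterozygous mean was thus 59.4% of wild-type. On the normalized log2 scale, heterozygous minus wild-type was -0.76 (95% interval -1.03 to -0.48, limma adjusted p = 0.323). Mutant minus heterozygous was 0.67 (0.39 to 0.94, limma adjusted p = 0.186), and mutant minus wild-type was -0.09 (-0.37 to 0.19).

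Type I collagen is the bulk of most fibrils and is made of the Col1a1 and Col1a2 chains. Col1a1 had signals of 3560.9, 2608.5 and 2633.0 in mutant mice, 2523.5, 2232.5 and 2555.2 in heterozygous mice, and 3437.8, 2713.2 and 2795.6 in wild-type mice. Col1a2 had 2827.6, 2718.3 and 1932.4 in mutant mice, 2094.5, 1781.6 and 2184.1 in heterozygous mice, and 2826.0, 2506.3 and 2537.4 in wild-type mice. In the second tested Col1a2 set heterozygous mice overlapped wild-type mice. In the representing sets of both chains every heterozygous mouse lay below every wild-type mouse. Against mutant mice the heterozygous mice in the representing sets stood apart for Col1a1 and overlapped for Col1a2, where mutant mouse 3 was low. Heterozygous minus wild-type was -0.26 for Col1a1 (SE 0.09, limma adjusted p = 0.584) and -0.37 for Col1a2 (SE 0.12, limma adjusted p = 0.576). Mutant minus heterozygous was 0.23 for Col1a1 (limma adjusted p = 0.649) and 0.26 for Col1a2 (limma adjusted p = 0.665).

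The promoter window of Col1a2 is shown because type I is the main fibril collagen and Col1a2 is its only chain with an entry in the promoter table. The window runs from 250 bases before to 50 bases after the start in RefSeq (GRCm38.p6, chr6:4505368-4505667, plus strand). Capitals mark matches to CCAAT and GGGCGG on either strand.
Col1a2: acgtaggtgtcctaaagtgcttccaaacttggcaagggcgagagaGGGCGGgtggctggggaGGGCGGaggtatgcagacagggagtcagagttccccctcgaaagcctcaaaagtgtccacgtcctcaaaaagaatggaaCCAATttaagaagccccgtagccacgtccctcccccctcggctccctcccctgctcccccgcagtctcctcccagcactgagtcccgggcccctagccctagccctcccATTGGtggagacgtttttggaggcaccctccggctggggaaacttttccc
It held GGGCGG at 2 places and CCAAT once on each strand, and no TATAAA. Of 32851 RefSeq windows of that length, 37.4% held CCAAT, 35.7% GGGCGG and 13.6% TATAAA on at least 1 strand, overlapping matches included. Of the 14 tested collagen genes with a window, 7 held CCAAT, 10 GGGCGG and 1 TATAAA, the last being Col3a1. These matches describe the letters and are not binding sites.

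Type III collagen, a homotrimer of Col3a1 chains, is typical of distensible tissues. Its signals were 1903.2, 1922.9 and 2491.7 in mutant mice, 1435.5, 2123.9 and 2323.9 in heterozygous mice, and 2382.4, 2597.6 and 3046.5 in wild-type mice. Heterozygous mice lay below all wild-type mice, and the mutant mean was 78.7% of the wild-type mean. Its second tested probe set differed from this: the mutant mean there was 97.2% of wild-type, mutant minus heterozygous was 0.38 (limma adjusted p = 0.658), and heterozygous mice overlapped wild-type mice. Among the representing sets of fibrillar chains, that of Col3a1 had the smallest mutant minus heterozygous value. For it, mutant minus wild-type was -0.35 (SE 0.19), heterozygous minus wild-type -0.46 (SE 0.19) and mutant minus heterozygous 0.11 (95% interval -0.32 to 0.54). None passed adjustment (limma, adjusted p = 0.998, 0.601 and 0.889).

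The other type V chains followed a different order. Col5a1 had 430.6, 485.2 and 435.7 in mutant mice, 296.3, 336.1 and 402.1 in heterozygous mice, and 309.0, 398.0 and 524.1 in wild-type mice. In this representing set mutant mice exceeded every heterozygous mouse, and the wide wild-type range overlapped both. In the second tested Col5a1 set every heterozygous mouse lay below every wild-type mouse, and mutant mice overlapped both. In the third all genotypes overlapped, with heterozygous minus wild-type at 0.10 and mutant minus heterozygous at -0.23. Col5a3, a minor type V chain, had 163.8, 182.4 and 222.8 in mutant mice, 117.4, 180.1 and 129.5 in heterozygous mice, and 111.3, 148.0 and 184.7 in wild-type mice. It was the tested collagen with the highest mutant mean relative to wild-type, 128% of it, although the mice overlapped. Mutant minus wild-type was 0.35 for Col5a3 (95% interval -0.01 to 0.71, limma adjusted p = 0.998).

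**Figure D1:**
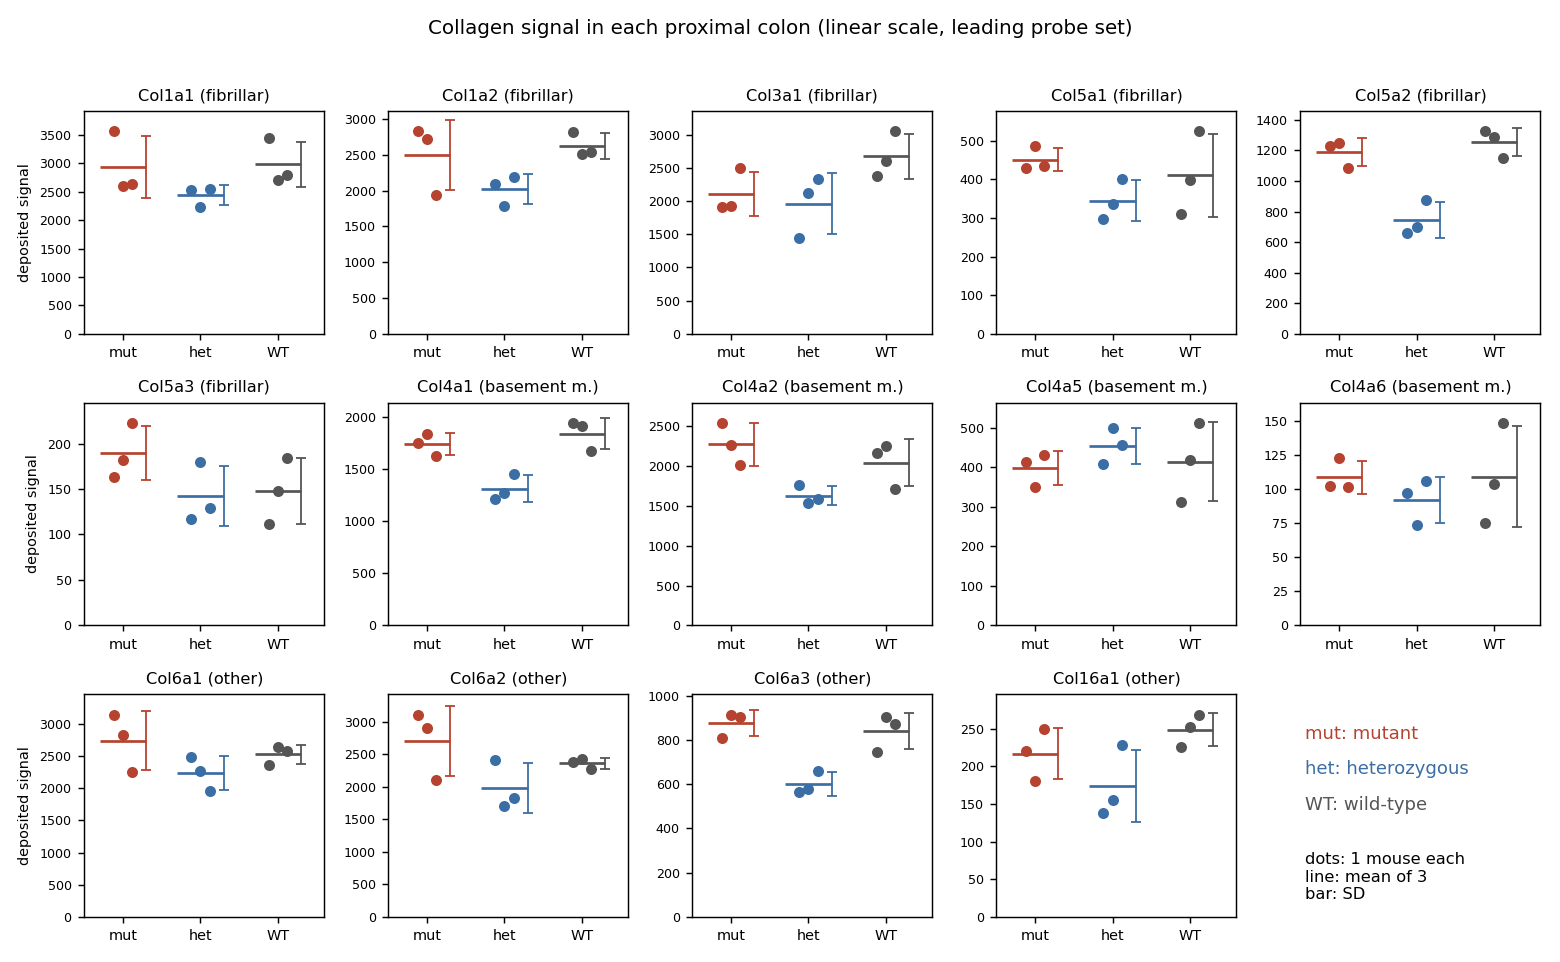
Deposited signal (linear scale, signal units) of 14 collagen genes in mutant (mut), heterozygous (het) and wild-type (WT) mice. Each dot is 1 mouse, the line is the mean of 3 and the bar its SD. For Col1a1, Col5a2, Col4a1 and Col6a3 the 3 heterozygous dots lie under all other dots.

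Among basement membrane collagens, the 2 chains of the common type IV network, Col4a1 and Col4a2, had an unadjusted limma p under 0.05 in heterozygous against wild-type, and the 2 chains of a more restricted network, Col4a5 and Col4a6, did not. Whether the chains differ from each other was not tested. Col4a1 had signals of 1754.3, 1835.1 and 1626.0 in mutant mice, 1209.1, 1273.1 and 1455.7 in heterozygous mice, and 1943.2, 1911.8 and 1670.0 in wild-type mice. In its second tested set heterozygous mice overlapped both other genotypes. In the representing set they stood below both without overlap, at 71.3% of the wild-type mean. Heterozygous minus wild-type was -0.49 (SE 0.10, limma adjusted p = 0.323) and mutant minus heterozygous 0.40 (SE 0.10, limma adjusted p = 0.404). Its partner chain Col4a2 had 2544.3, 2263.4 and 2014.8 in mutant mice, 1765.5, 1538.7 and 1592.3 in heterozygous mice, and 2168.4, 2260.4 and 1712.0 in wild-type mice. Heterozygous mice lay below all mutant mice and overlapped wild-type mouse 3. Heterozygous minus wild-type was -0.32 (limma adjusted p = 0.584) and mutant minus heterozygous 0.47 (limma adjusted p = 0.353).

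Col4a1 and Col4a2 are neighbours on chromosome 8 that are transcribed away from each other from one short stretch, so both windows are shown (RefSeq, GRCm38.p6). Col4a1 lies at chr8:11312777-11313076 on the minus strand and Col4a2 at chr8:11312555-11312854 on the plus strand. Capitals mark the 78 bases that both windows hold, read from opposite strands.
Col4a1: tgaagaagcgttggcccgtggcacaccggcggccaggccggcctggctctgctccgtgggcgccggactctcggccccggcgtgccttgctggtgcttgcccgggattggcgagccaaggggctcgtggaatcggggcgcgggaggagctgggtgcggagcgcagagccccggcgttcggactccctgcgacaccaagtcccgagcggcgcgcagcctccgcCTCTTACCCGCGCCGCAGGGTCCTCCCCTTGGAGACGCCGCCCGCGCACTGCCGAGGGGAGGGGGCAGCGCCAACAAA
Col4a2: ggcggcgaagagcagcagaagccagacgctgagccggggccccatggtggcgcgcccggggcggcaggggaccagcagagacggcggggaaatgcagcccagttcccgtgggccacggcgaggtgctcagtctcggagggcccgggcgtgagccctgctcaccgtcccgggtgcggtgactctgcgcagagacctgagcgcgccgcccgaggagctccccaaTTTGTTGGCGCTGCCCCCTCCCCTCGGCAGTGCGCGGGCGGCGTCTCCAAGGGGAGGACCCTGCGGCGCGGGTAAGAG
The shared stretch lies at the end of both windows. Neither window held TATAAA, and both held CCAAT once. GGGCGG occurred once in the Col4a1 window and at 3 places in the Col4a2 window, counting both strands. The Col4a1 match lies in the shared stretch, so the Col4a2 count includes the same site.

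Col4a5 and Col4a6, which form a network found in some smooth muscle and epithelial basement membranes, are X-linked neighbours. Col4a5 had 412.6, 349.4 and 431.0 in mutant mice, 407.7, 498.1 and 455.2 in heterozygous mice, and 310.9, 419.1 and 511.7 in wild-type mice. It was the only tested collagen with a heterozygous minus wild-type value above 0, 0.14 (SE 0.15, limma adjusted p = 0.83), and the genotypes overlapped. Col4a6 had 102.0, 122.8 and 101.6 in mutant mice, 96.9, 73.6 and 106.0 in heterozygous mice, and 75.1, 103.9 and 148.6 in wild-type mice. Wild-type mice spread the most, and the heterozygous minus wild-type value of -0.22 had a 95% interval of -0.65 to 0.21.

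Type VI collagen is built from Col6a1, Col6a2 and Col6a3 chains. Col6a3 had 808.0, 915.6 and 905.1 in mutant mice, 563.6, 577.5 and 661.0 in heterozygous mice, and 748.0, 902.6 and 872.3 in wild-type mice. All heterozygous mice were below all other mice, at 71.4% of the wild-type mean, while the mutant mean was 104% of it. Heterozygous minus wild-type was -0.49 (SE 0.10, limma adjusted p = 0.377) and mutant minus heterozygous 0.54 (95% interval 0.31 to 0.76, limma adjusted p = 0.191). Col6a2 had 3115.1, 2907.0 and 2103.9 in mutant mice, 2415.8, 1706.2 and 1822.8 in heterozygous mice, and 2388.4, 2426.7 and 2271.3 in wild-type mice. Col6a1 had 3147.0, 2830.6 and 2249.3 in mutant mice, 2489.0, 2273.1 and 1955.9 in heterozygous mice, and 2358.8, 2641.3 and 2577.7 in wild-type mice. For these 2 chains all genotypes overlapped, and heterozygous minus wild-type was -0.28 for Col6a2 and -0.18 for Col6a1. These genes are neighbours on chromosome 10.

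The remaining tested chains associate with fibrils or basement membrane zones. Col16a1, a fibril-associated collagen, had 220.6, 180.7 and 249.2 in mutant mice, 138.4, 154.9 and 228.1 in heterozygous mice, and 225.3, 251.8 and 268.7 in wild-type mice. Heterozygous mice 1 and 2 were below every other mouse and mouse 3 was not, and the heterozygous minus wild-type value of -0.53 (SE 0.16) did not pass (limma adjusted p = 0.555). Col14a1, also fibril-associated, averaged 81.6 ± 11.6 in mutant, 91.2 ± 13.2 in heterozygous and 92.3 ± 7.65 in wild-type mice (SD, n = 3 each). Col15a1, a multiplexin of basement membrane zones, averaged 348 ± 62.7 in mutant, 292 ± 25.9 in heterozygous and 365 ± 58.3 in wild-type mice (SD, n = 3 each). Col18a1, which yields endostatin, averaged 292 ± 26.5 in mutant, 232 ± 75.7 in heterozygous and 272 ± 47.2 in wild-type mice (SD, n = 3 each). All 3 had overlapping genotypes.

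Mutant against wild-type asks how the mutant genotype differs under the deficient diet. The 17 genes had a median log2 fold change of -0.03, with 9 below 0 (48.5% of all genes were) and 8 above (51.5%). By its representing set, no collagen gene had an unadjusted p under 0.05 by limma (background 1.79% lower and 1.91% higher). None of these sets had non-overlapping genotypes (background 2.85% lower and 4.13% higher). In the second Col6a2 set every mutant mouse lay above every wild-type mouse, at 0.35 (limma adjusted p = 0.998). In the second Col14a1 set, too dim to be tested, every mutant mouse lay below every wild-type mouse. The 95% intervals were wide, with half-widths of 0.21 to 0.55 and bounds between -0.77 and 0.71 over the 17 genes.

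Heterozygous against wild-type gave a median of -0.28, against -0.02 for all genes tested, and 16 of 17 collagen genes lay below 0 (54.4% of all genes did) and 1 above (45.6%). With limma's unadjusted p under 0.05, 8 collagen genes were lower (47.1% of 17, background 4.07%) and 0 higher (background 3.39%). They were 4 of 6 fibrillar, 2 of 4 basement membrane and 2 of 7 other collagens. Without heterozygous mouse 2 the count was 5. By their representing sets, 6 genes (Col1a1, Col1a2, Col3a1, Col5a2, Col4a1 and Col6a3) had all heterozygous mice below all wild-type mice, against a background of 6.55% of genes. In 0 genes they lay above (background 5.46%). In the second tested sets of Col1a2, Col3a1 and Col4a1 heterozygous mice overlapped wild-type mice, and in those of Col1a1 and Col5a2 they did not. By structural group the medians were -0.31 for fibrillar, -0.27 for basement membrane and -0.28 for other collagens.

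Mutant against heterozygous tests directly whether those genotypes differ, and shares its heterozygous arrays with the preceding comparison. Its median was 0.34, against 0.02 for all genes, and 15 of 17 collagen genes lay above 0 (54.5% of all genes did) and 2 below (45.5%). By limma's unadjusted p, 9 were higher (background 4.77%) and 0 lower (background 2.82%). By their representing sets, 6 genes (Col1a1, Col5a1, Col5a2, Col4a1, Col4a2 and Col6a3) were higher without overlap (background 6.57%). In the lower direction 0 stood apart (background 3.94%). In the further tested sets of Col5a1 and Col4a1 mutant and heterozygous mice overlapped, and in those of Col1a1 and Col5a2 they did not. The medians of the groups were 0.32 for fibrillar, 0.33 for basement membrane and 0.34 for other collagens.

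**Figure D2:**
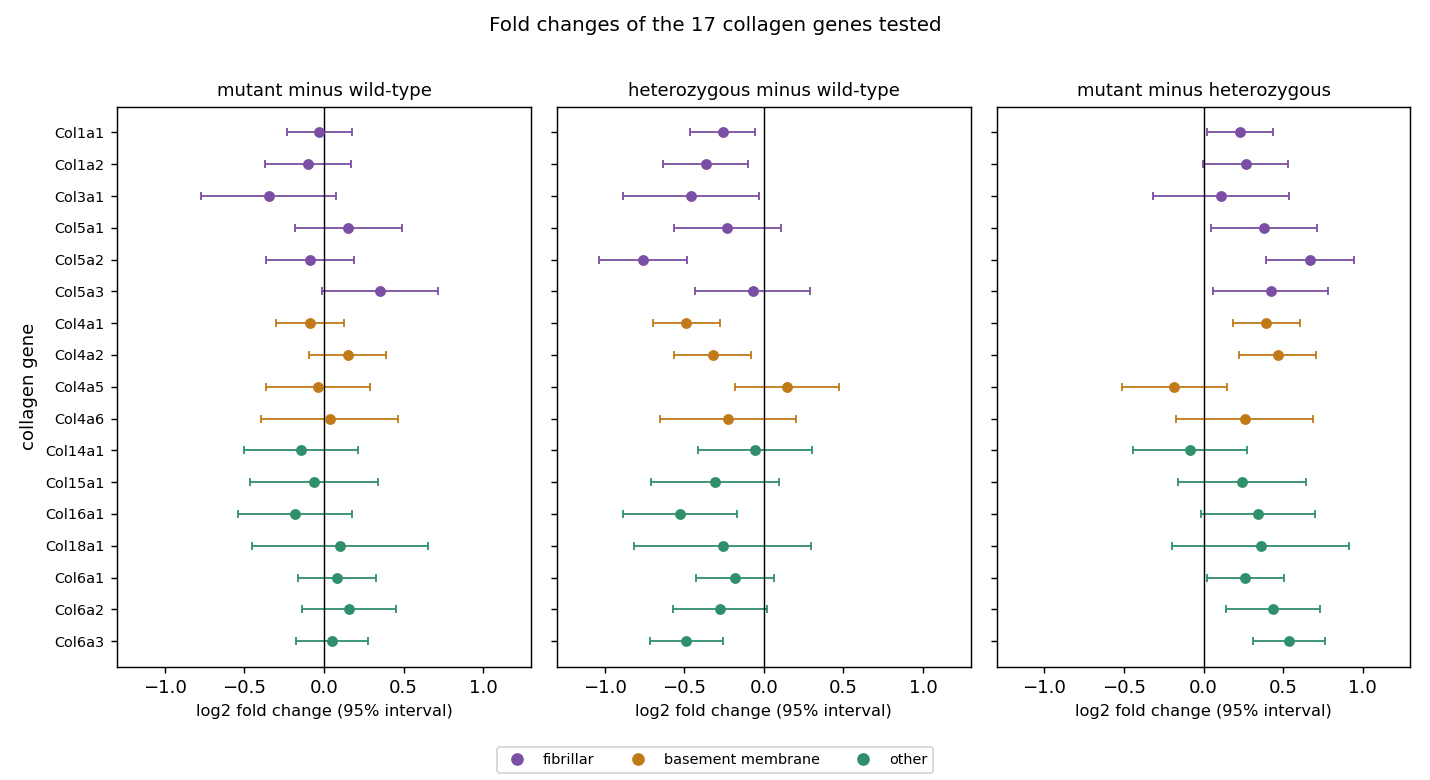
Log2 fold changes of the 17 tested collagen genes for mutant minus wild-type, heterozygous minus wild-type and mutant minus heterozygous. Points are limma estimates and bars 95% intervals, coloured by structural group. In the first panel every interval spans 0, in the second 8 lie below 0 and in the third 9 lie above 0.

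**Figure D3:**
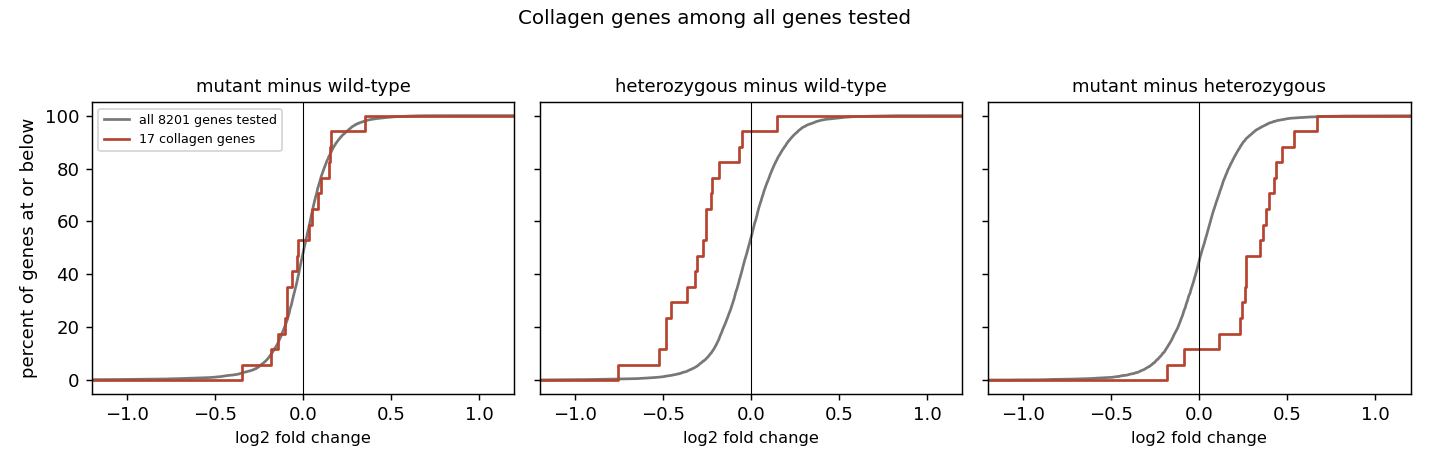
Percent of genes at or below each log2 fold change, for the 17 collagen genes and for all 8201 genes tested, in the same 3 comparisons. The curves run together for mutant minus wild-type, and the collagen curve is shifted to lower values for heterozygous minus wild-type (median -0.28) and to higher values for mutant minus heterozygous (median 0.34).

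The pattern could be followed mouse by mouse. Relative to the wild-type mean, the median collagen deviation on the log2 scale was 0.11, 0.10 and -0.12 in mutant mice, and -0.21, -0.40 and -0.28 in heterozygous mice. In wild-type mice it was 0.018, -0.0076 and 0.0018. Genes below every wild-type mouse numbered 8 of 17 in heterozygous mouse 1 (31.3% of all genes tested), 13 in mouse 2 (23.4%) and 11 in mouse 3 (24.6%). In mutant mice they numbered 4 (30.1%), 3 (16.8%) and 6 (21.4%). Of the 17 genes, 14 had their lowest signal of the 9 arrays in a heterozygous mouse, as 34.5% of all genes did. The actin ratio was highest in the array numbered 1 of each genotype, and its part in the collagen values was not tested. With the ratio as a covariate, 9 genes were lower in heterozygous than in wild-type mice at unadjusted p under 0.05, against 6.43% of all genes in that fit, and 0 passed adjustment (limma).

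**Figure D4:**
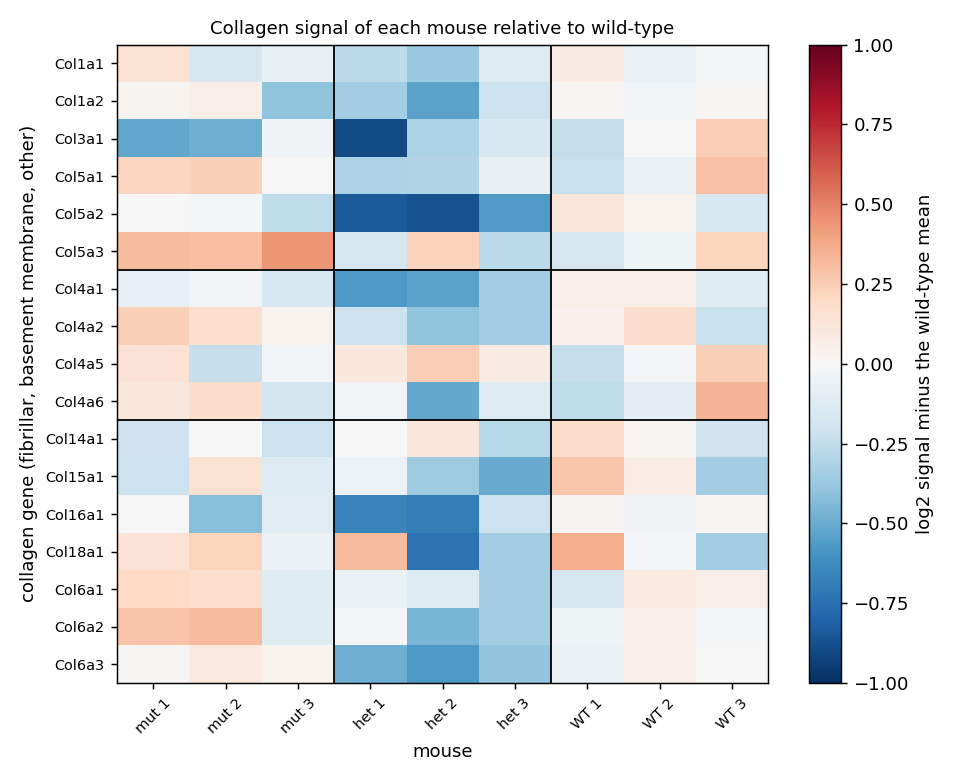
Log2 signal of each mouse minus the wild-type mean for the 17 tested collagen genes (rows, ordered by structural group) and the 9 mice (columns, mutant, heterozygous, wild-type). Blue is lower and red higher. The 3 heterozygous columns are mostly blue, with medians of -0.21, -0.40 and -0.28.

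Several genes have further probe sets that were not used to represent them. Of the 10 further tested sets, on 9 genes, 9 had a heterozygous minus wild-type value below 0 and 8 had the sign of the representing set. Their median was -0.29, 0 passed adjustment (limma), and 3 had an unadjusted p under 0.05, for Col1a1 (-0.52), Col1a2 (-0.35) and Col3a1 (-0.42). The second Col5a2 set averaged 373 ± 35.6 in mutant, 264 ± 37.4 in heterozygous and 329 ± 30.1 in wild-type mice (SD, n = 3 each), with heterozygous minus wild-type at -0.31 and mutant minus heterozygous at 0.48. The second Col4a1 set gave smaller values, -0.11 and 0.04 for the same differences. The sets of Col4a5 disagreed in sign, 0.14 for the representing set and -0.27 for the other.

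**Figure D5:**
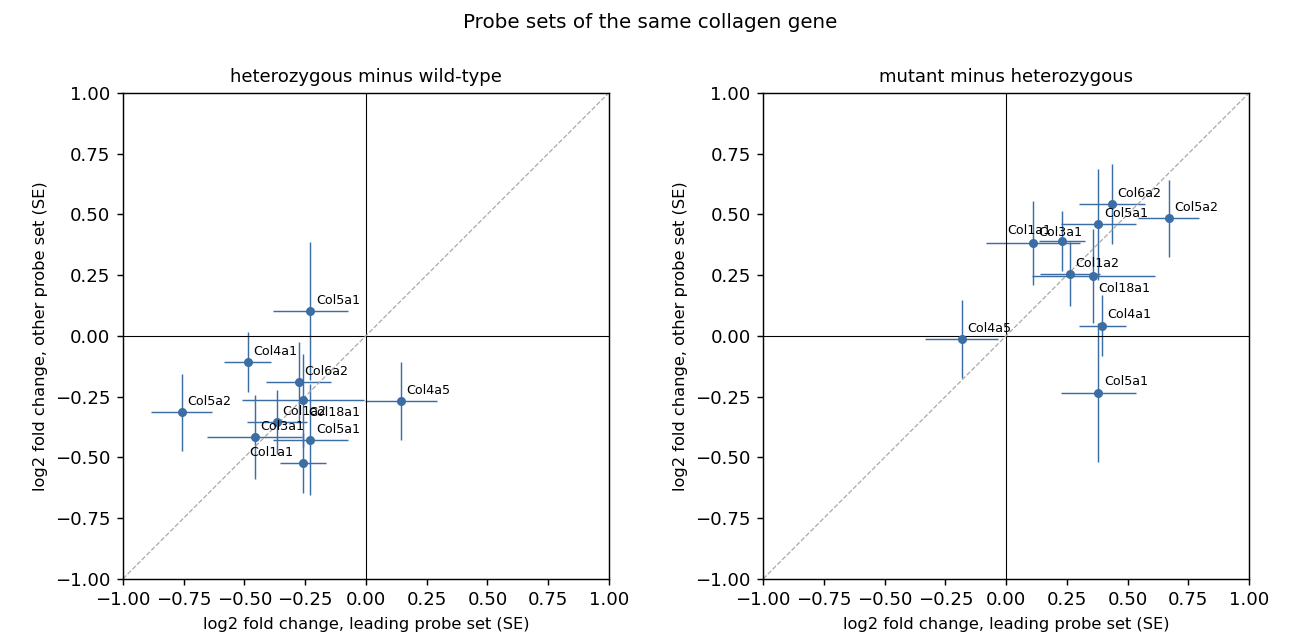
Log2 fold change of the representing probe set (x axis) against that of another tested probe set of the same gene (y axis), with SE bars, for heterozygous minus wild-type and mutant minus heterozygous. Of 10 points, 9 lie below 0 on the y axis in the first panel and 8 above 0 in the second.

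Neighbouring collagen genes can be set beside each other. Col3a1 and Col5a2, adjacent on chromosome 1, had heterozygous minus wild-type values of -0.46 and -0.76. Col4a1 and Col4a2 on chromosome 8 had -0.49 and -0.32, and Col6a1 and Col6a2 on chromosome 10 had -0.18 and -0.28. Col4a5 and Col4a6 on chromosome X had opposite signs, 0.14 and -0.22. No protein-coding gene lies between the members of any of these pairs in the RefSeq gene table.

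The 19 collagen genes under the brightness limit had mean signals of 2.49 to 69.4. Nearest the limit were Col13a1, a transmembrane collagen, and Col8a1, a short-chain collagen of vessel walls, at 69.4 and 68.6, and the dimmest tested genes were Col14a1 at 88.4 and Col4a6 at 103. In 9 of the 19, the mean was at or under 10.9, the highest signal of 27 bacterial control probe sets, and in 5 (Col10a1, Col17a1, Col19a1, Col26a1 and Col4a3) so were all 9 arrays. The fibrillar Col2a1, Col11a1 and Col11a2, which belong to cartilage, and Col9a1, Col9a2 and Col9a3 were also among the 19. None of 6 cartilage markers was bright enough to be tested, and 5 averaged under the highest bacterial control signal. Their summed signal, mostly at that control level, was 53.8 to 72.4 in mutant, 49.4 to 74.2 in heterozygous and 47.0 to 47.3 in wild-type mice. Col4a4 had 13.0, 19.0 and 17.3 in mutant mice, 2.0, 10.4 and 8.2 in heterozygous mice, and 12.2, 10.8 and 10.8 in wild-type mice, too dim to be tested.

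Genes that act on collagen were looked at as lists. None of the 45 members tested passed adjustment by limma in any comparison. At an unadjusted p under 0.05, 0 were lower and 1 higher in mutant against wild-type, 3 lower and 1 higher in heterozygous against wild-type, and 1 lower and 4 higher in mutant against heterozygous. Over all genes tested the shares were 1.79% and 1.91%, 4.07% and 3.39%, and 2.82% and 4.77%, and counts of this size among 45 genes are read as no result about the lists. Of 13 tested modifying enzymes and chaperones, 9 lay below 0 in heterozygous against wild-type (54.4% of all genes did), with a median of -0.12. Serpinh1, the collagen chaperone HSP47, averaged 728 ± 246 in mutant, 506 ± 125 in heterozygous and 694 ± 206 in wild-type mice (SD, n = 3 each), a heterozygous minus wild-type value of -0.44 (limma adjusted p = 0.662).

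Among 5 tested genes of procollagen processing and crosslinking, all 5 lay below 0 in heterozygous against wild-type (54.4% of all genes did), with a median of -0.14. Loxl1, a lysyl oxidase family member, averaged 239.8 ± 19.5 in mutant, 169.8 ± 23.4 in heterozygous and 236 ± 29.4 in wild-type mice (SD, n = 3 each), and heterozygous mice overlapped neither other genotype. Its heterozygous minus wild-type value was -0.46 (limma adjusted p = 0.601). Of the small leucine-rich proteoglycans that bind fibrils, fibromodulin (Fmod) averaged 383 ± 76.3 in mutant, 199.5 ± 23.1 in heterozygous and 311 ± 59.9 in wild-type mice (SD, n = 3 each). It differed by -0.61 between heterozygous and wild-type mice and by 0.89 between mutant and heterozygous mice (limma adjusted p = 0.361). Decorin (Dcn) had its highest mean in heterozygous mice, at 1559 ± 262 in mutant, 2106 ± 409 in heterozygous and 1921 ± 136 in wild-type mice (SD, n = 3 each). For Dcn, heterozygous minus wild-type was 0.13 and mutant minus heterozygous -0.44 (limma adjusted p = 0.625). Of the 7 tested proteoglycans, 3 lay below 0 in heterozygous against wild-type (54.4% of all genes did) and 4 above (45.6%), with a median of 0.00072.

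Mmp14, a membrane-anchored collagenase, averaged 377 ± 50.2 in mutant, 235 ± 31.7 in heterozygous and 275 ± 41.5 in wild-type mice (SD, n = 3 each). Mutant mice exceeded every other mouse, by 0.43 against wild-type mice (limma adjusted p = 0.998) and 0.66 against heterozygous mice (limma adjusted p = 0.413). Mmp2, a gelatinase, differed by -0.39 between heterozygous and wild-type mice. Among 3 tested receptors, the collagen receptor kinase Ddr1 went the other way, at 1399 ± 261 in mutant, 1645 ± 175 in heterozygous and 1264 ± 59.7 in wild-type mice (SD, n = 3 each). For 13 partners of type IV collagen in basement membranes the heterozygous minus wild-type median was -0.04, with Lama5, a laminin chain, at -0.46 (limma adjusted p = 0.548).

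Markers of cell types in the gut wall were set beside these values. For smooth muscle, 0 of 11 tested markers passed adjustment by limma in heterozygous against wild-type and 4 were lower at an unadjusted p under 0.05 (4.07% of all genes were). Of the 11, 10 lay below 0 (54.4% of all genes) and 7 were lower without overlap (6.55% of all genes), with a median of -0.20. Their summed signal was 30859 to 38904 in mutant, 28484 to 32012 in heterozygous and 33915 to 36271 in wild-type mice. Cnn1, calponin, averaged 2387 ± 282 in mutant, 1523 ± 203 in heterozygous and 2373 ± 222 in wild-type mice (SD, n = 3 each), a heterozygous minus wild-type value of -0.65 (limma adjusted p = 0.323). None of the 12 markers averaged 10.9 or less. The part of smooth muscle content in the collagen values was not tested. Of mesothelial markers 2 were tested, and 0 passed adjustment by limma in heterozygous against wild-type. At an unadjusted p under 0.05, 1 was lower (4.07% of all genes were). The mesothelial median was -0.29, with sums of 384 to 484 in mutant, 283 to 413 in heterozygous and 422 to 463 in wild-type mice.

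For fibroblasts, 0 of 13 tested markers passed adjustment by limma in heterozygous against wild-type. At an unadjusted p under 0.05, 2 were lower (4.07% of all genes were) and 1 higher (3.39%). Of the 13, 9 lay below 0 (54.4% of all genes) and 2 were lower without overlap (6.55% of all genes), with a median of -0.14. Their summed signal was 18199 to 19875 in mutant, 19085 to 19487 in heterozygous and 17832 to 22854 in wild-type mice. By this sum heterozygous mice lay within the wild-type range. Dermatopontin (Dpt) differed by 0.18 and fibronectin (Fn1) by -0.30. For 7 tested endothelial markers the median was -0.03, with sums of 1032 to 1228 in mutant, 1066 to 1211 in heterozygous and 1108 to 1396 in wild-type mice. For 10 epithelial markers it was -0.02, with sums of 38382 to 48331 in mutant, 39244 to 44997 in heterozygous and 40413 to 47667 in wild-type mice. The epithelial and smooth muscle markers of colon were thus present in every array.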

How the data were processed

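Total RNA of each proximal colon, about 50 ng, was amplified with a NuGEN Ovation kit and biotin-labelled, per the labels' protocols. The authors deposited intensities, 1 linear signal per probe set and array. The submitters' processing notes name GCOS without a version, and how signals were scaled is not stated there. The trimmed mean (2% from each end) was 500.1 to 500.2 in every array, so scaling to a common mean is seen in the values. After adding 16 and taking log2, arrays were quantile normalized, because their log2 medians spread over 0.294. The added 16 makes fold changes of dim genes smaller.

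Control probe sets (64 of 22690) were left out, as were probe sets under the 40th percentile of mean log2 signal (75.5 on the linear scale), leaving 13576. They were fitted with limma 3.58.1 (R 4.3.3, lmFit and eBayes with a trend) on all 9 arrays, with Benjamini-Hochberg adjustment over all of them and a threshold of 0.05. Fold changes are on this log2 scale, signals and overlap on the deposited scale. The fit was run on simulated data with independent noise and known changes, all larger than any collagen fold change here. That run does not show how well smaller changes are found. Figures were drawn with matplotlib 3.10.9 in Python 3.11.15.

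Groups followed the labels. Per-mouse values are given for the 6 collagen genes with the smallest unadjusted p in each comparison, the 8 brightest and the tested type IV and VI chains; of other lists, up to 3 genes per comparison with the smallest p. Promoter sequences are RefSeq's (GRCm38.p6). That gene table served only for chromosomes, neighbours and synonyms of listed genes, since the files name no build. The members and the lists were chosen with earlier results of these data known. Correlations of deviations from group means between same-numbered arrays were -0.0589 to 0.463 over 9 pairs, and 5 exceeded 0.1. Between differently numbered arrays they were -0.507 to 0.275 over 18 pairs. The main fit did not take the numbers to pair the mice, and these values do not settle whether they do. Alternatives were other scalings, pseudocounts, filters and variance models, all probe sets of a gene averaged, fits on 2 genotypes alone, a replicate block, array weights, the actin ratio as a covariate and leaving out arrays.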

Additional observations from a re-analysis of the deposited data

How the results depend on the processing

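No collagen gene passed adjustment in mutant against wild-type or mutant against heterozygous under any alternative run, which covered scaling, filter, pseudocount, variance model, array weights, leaving out arrays, and the actin ratio. In heterozygous against wild-type, array weights gave 4 genes in place of 0, with a collagen median of -0.37: Col5a2 (-0.79, limma adjusted p = 0.0102), Col4a1 (-0.53, adjusted p = 0.0209), Col6a3 (-0.55, adjusted p = 0.0209) and Col4a2 (-0.49, adjusted p = 0.0328). That fit called 134 of 13576 probe sets (0.987%) and weighted wild-type mouse 2 at 8.64 and the other arrays at 0.454 to 1.36. Leaving out each array in turn, the median ran from -0.37 to -0.22 for heterozygous against wild-type, from 0.26 to 0.38 for mutant against heterozygous and from -0.03 to 0.05 for mutant against wild-type. Genes at unadjusted p under 0.05 were 5 in place of 8 with median centring and without heterozygous mouse 2 (heterozygous against wild-type), and 5 in place of 9 with values as deposited (mutant against heterozygous).

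Single values that changed sign had not passed the test, and the cause was not tested. In mutant against wild-type these were Col1a1 at 0.026 and Col6a3 at -0.00073 with array weights, Col4a6 at -0.13 and Col6a1 at -0.059 without the arrays numbered 1, and Col5a2 at 0.039 with all probe sets averaged. Leaving out single arrays gave -0.12 to 0.038 for Col1a1, -0.19 to 0.047 for Col1a2, -0.15 to 0.082 for Col4a5, -0.090 to 0.21 for Col4a6 and -0.0013 to 0.18 for Col6a1. In heterozygous against wild-type, Col5a3 was 0.021 with array weights and -0.22 to 0.040 over single arrays, and Col4a5 was -0.062 with all probe sets averaged. In mutant against heterozygous, Col3a1 was -0.029 with array weights, -0.024 without the arrays numbered 1 and -0.11 to 0.26 over single arrays.

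With the replicate number as a replicate block, 0 collagen genes were called in each comparison, and the smallest adjusted p (limma) was 0.686 for mutant against wild-type, 0.171 for heterozygous against wild-type and 0.107 for mutant against heterozygous. Medians were -0.03, -0.28 and 0.34 in the same order. Over all probe sets the block called 5 in place of 3, 0 in both fits and 8 in place of 3. As a hint from the data only, 4 of 9 arrays correlated best with their own number in both other genotypes. Taking each array with each other genotype, the best partner had the same number in 12 of 18 cases.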

Other observations

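The 4 tested adipocyte markers lay below 0 in mutant against wild-type (48.5% of all genes did), with a median log2 fold change of -0.63. Their summed signal was 2829 to 5586 in mutant, 5622 to 7832 in heterozygous and 5505 to 8023 in wild-type mice. The 8 macrophage markers also lay below 0 in that comparison (48.5% of all genes did), with a median of -0.29. Macrophage sums were 6386 to 9362 in mutant, 7954 to 8780.5 in heterozygous and 7393 to 11064 in wild-type mice. In heterozygous against wild-type the medians were 0.02 for adipocyte and -0.03 for macrophage markers. No member of either list passed adjustment by limma, and at an unadjusted p under 0.05 2 adipocyte and 0 macrophage markers were lower in mutant against wild-type (1.79% of all genes were). The sums of both lists overlapped between mutant and wild-type mice. Only 1 enteric glia marker was tested, at -0.05 in heterozygous against wild-type.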
